A study of Mus musculus with 12 samples.

Results

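The effect of losing 1 copy of Utrn on a dystrophin-deficient background was measured in cardiomyocytes of mouse hearts, pooled over saline and PB1046 treatment. The comparison used all 12 libraries of the series: 6 from mdx:Utrn+/- hearts (3 with saline, 3 with PB1046) and 6 from mdx hearts (3 with saline, 3 with PB1046). All mice carried the mdx mutation of Dmd, so no library came from a heart with an intact Dmd gene, and the mdx group is itself a disease model. PB1046, an analog of vasoactive intestinal peptide, or saline was given every other day between 4 and 12 weeks of age. Hearts were taken at 14 weeks. The protocol lists doses of 0.75 and 1.5 mg/kg, and treated libraries are labelled high dose. RNA was extracted from frozen pellets of isolated cardiomyocytes and poly-A RNA was sequenced. How the Utrn allele was altered, and whether each library was a mouse of its own, is not given in the sources used here, so p-values measure the spread between these libraries.

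Dystrophin links the actin cytoskeleton of a muscle fibre to a complex of membrane glycoproteins and through it to laminin in the matrix. Utrophin, the product of Utrn, is its autosomal homolog, binds the same complex, and is raised at the muscle membrane when dystrophin is absent. Mice that lack dystrophin and also 1 copy of Utrn are used as a model of more severe dystrophic muscle and heart disease than mdx alone.

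Of 18530 genes in the table, 12798 had at least 1 TPM (reads scaled by gene length and library total) in at least 3 libraries and were tested. Levels are given as scaled TPM, which is the deposited TPM divided by a trimmed-mean factor per library (0.828 to 1.31). Tests used log2(scaled TPM + 1), and every log2 difference is mdx:Utrn+/- minus mdx on that scale, which understates differences of genes with low levels. Recovered reads per library were 7234100 to 25013287 in mdx:Utrn+/- and 11468009 to 25458194 in mdx. All 10 cardiomyocyte markers were measured and summed to 129612 to 142259 TPM in mdx:Utrn+/- libraries and 107689 to 140785 TPM in mdx libraries, so the labelled cell type was present in every library. Other cells were present too. The 15 endothelial markers summed to 1222 to 4967 TPM in mdx:Utrn+/- and 969 to 7283 TPM in mdx. An endothelial score, the mean of these markers' centred log2 values, was 0.27 to 1.11 in 5 libraries and -0.93 to -0.15 in the other 7. Of these 5 libraries, 4 were mdx (saline replicates 2 and 3, PB1046 replicates 2 and 3) and 1 was mdx:Utrn+/- (PB1046 replicate 2). The median score was -0.30 in mdx:Utrn+/- and 0.36 in mdx. None of the 15 markers (0) passed between genotypes. Scores under PB1046 were -0.45, 0.93 and -0.15 in mdx:Utrn+/- and -0.93, 0.46 and 1.11 in mdx. Because 4 of the 5 libraries of high score are mdx, the list medians and most genes named from lists are given below with and without them. The fit without the 5 keeps 5 mdx:Utrn+/- libraries but only 2 mdx libraries, saline replicate 1 and PB1046 replicate 1. Its values and turns of sign rest on these 2 mdx libraries, and fewer libraries give it less power. By the library numbers in the labels, the 4 libraries numbered above every mdx:Utrn+/- library were the 4 mdx libraries of high score. What the numbers stand for is not given in the sources used here, so whatever they mark cannot be told apart from genotype in these libraries. In bulk RNA, fewer cells of a type and less RNA per cell cannot be told apart.

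Utrn was lower in mdx:Utrn+/- cardiomyocytes. Its level was 3.96, 7.29 and 6.04 scaled TPM in mdx:Utrn+/- with saline and 5.30, 8.39 and 6.54 in mdx:Utrn+/- with PB1046, against 8.93, 8.49 and 11.2 in mdx with saline and 6.58, 13.4 and 14.0 in mdx with PB1046. Under saline the genotypes did not overlap, and under PB1046 the lowest mdx library lay below 1 mdx:Utrn+/- library. The mean was 6.25 ± 1.55 in mdx:Utrn+/- and 10.4 ± 2.94 in mdx (SD, n = 6 each), which is 40.1% lower. The gap was 39.5% under saline and 40.5% under PB1046. On deposited TPM, without the factor, the mean was 50.1% lower. The log2 difference was -0.64 (SE 0.19, 95% interval -1.06 to -0.22). An exact two-sided permutation test, which exchanged genotypes within treatments over 400 relabelings, gave p = 0.02, where 0.005 is the smallest p it can give. Adjusted over all genes tested in limma, Utrn did not pass (adjusted p = 0.834, unadjusted p = 0.00571).

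Utrn is also a transcript of blood vessels, and its level moved with the endothelial markers. The 5 libraries of high endothelial score had 8.39 to 14.0 scaled TPM of Utrn. Among the other 7, the 5 mdx:Utrn+/- libraries had 3.96 to 7.29 and the 2 mdx libraries 6.58 and 8.93. Without the 5 libraries the log2 difference was -0.37 (unadjusted p = 0.173), and with the endothelial score as a term it was -0.49 (unadjusted p = 0.00672, limma). In both the sign was as before. Utrn lies at chr10:12382188-12861735 (mm10, 1-based, minus strand).

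Dmd, which carries the mdx mutation in both genotypes and is still transcribed, served as the comparison gene. It averaged 3.59 ± 1.32 scaled TPM in mdx:Utrn+/- and 3.79 ± 0.869 in mdx (SD, n = 6 each). On the log2 scale the difference was -0.09 (95% interval -0.54 to 0.36, exact permutation p = 0.72). Levels ran from 1.63 to 5.54 in mdx:Utrn+/- and, within that range, from 2.59 to 4.82 in mdx. Without the 5 libraries of high endothelial score the log2 difference of Dmd was -0.30, beside -0.37 for Utrn. In that fit the 2 genes were therefore not clearly apart.

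**Figure D1:**
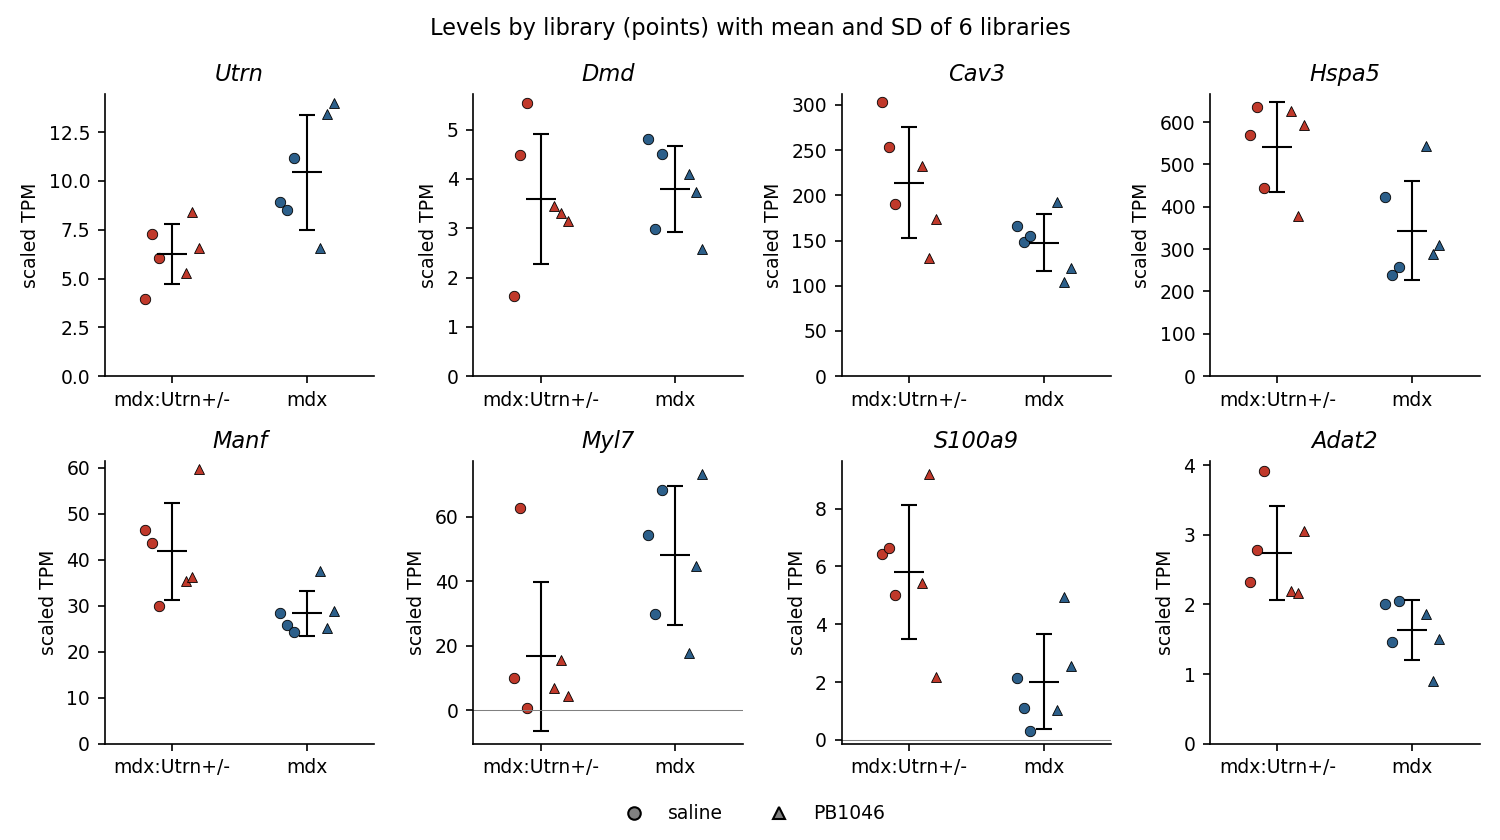
Scaled TPM (y axis) of 8 genes in each of the 12 libraries, mdx:Utrn+/- left and mdx right, circles for saline and triangles for PB1046, with the mean and SD of 6 libraries as bars. Adat2 is the only one of the 8 whose groups do not overlap, and for Myl7 the mdx:Utrn+/- libraries range from 0.864 to 62.8.

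The other partners of dystrophin gave no call. Of 20 measured members of the dystrophin-glycoprotein complex list, 0 passed in either direction, beside 0% of all genes. Of these members 14 were higher and 6 lower, with a median log2 difference of 0.15, beside 0.01 for all genes and 51.0% of all genes higher. The median was -0.08 without the scaling factors, which is 0.12 above the median of all genes in that fit. It was 0.02 with the endothelial score as a term and -0.14 without the 5 libraries, a fit that keeps only 2 mdx libraries. Its direction beside other genes therefore differed between these fits. Members at an unadjusted p under 0.05 were Cav3 and Sgca on the higher side and Utrn and Sgce on the lower. Cav3, the muscle caveolin, averaged 214 ± 61.5 scaled TPM in mdx:Utrn+/- and 148 ± 31.8 in mdx (log2 difference 0.51, SE 0.19, unadjusted p = 0.0202). Its groups overlapped: 131 to 303 in mdx:Utrn+/- and 104 to 192 in mdx. Sgca, a sarcoglycan made in striated muscle, averaged 213 ± 42.6 in mdx:Utrn+/- and 163 ± 45.5 in mdx (log2 difference 0.40). Sgce, the sarcoglycan found in many tissues, averaged 5.86 ± 1.24 in mdx:Utrn+/- and 8.16 ± 2.40 in mdx (log2 difference -0.40, SE 0.15, unadjusted p = 0.0222). The log2 difference of Cav3 was 0.32, that of Sgca 0.15 and that of Sgce -0.15 without the 5 libraries.

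Across the transcriptome no gene separated the genotypes past the threshold. With limma 0 of 12798 genes (0% called) had an adjusted p under 0.05, and the smallest adjusted p was 0.834. At an unadjusted p under 0.05 there were 534 genes (4.17%), of which 381 (2.98%) were higher and 153 (1.2%) lower in mdx:Utrn+/-. limma-voom on recovered reads also called 0, with 516 (4.03%) at an unadjusted p under 0.05. Without the scaling factors the median of all genes shifted to -0.21, and the split became 23 higher and 1040 lower (8.31% together), with 0 called. The fit without the 5 libraries of high endothelial score keeps only 2 mdx libraries, so its count is not set beside these. The count of 534 also moved with single libraries. It was 1766 without mdx PB1046 replicate 1 and 1236 without mdx:Utrn+/- PB1046 replicate 2. It was 177 without mdx:Utrn+/- PB1046 replicate 1 and 300 without mdx:Utrn+/- saline replicate 1. It was 230 and 305 without mdx PB1046 replicates 2 and 3, and 249 and 301 without mdx saline replicates 2 and 3. The typical 95% interval reached 0.39 to either side on the log2 scale, and 25 genes differed by more than 1 on it.

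**Figure D2:**
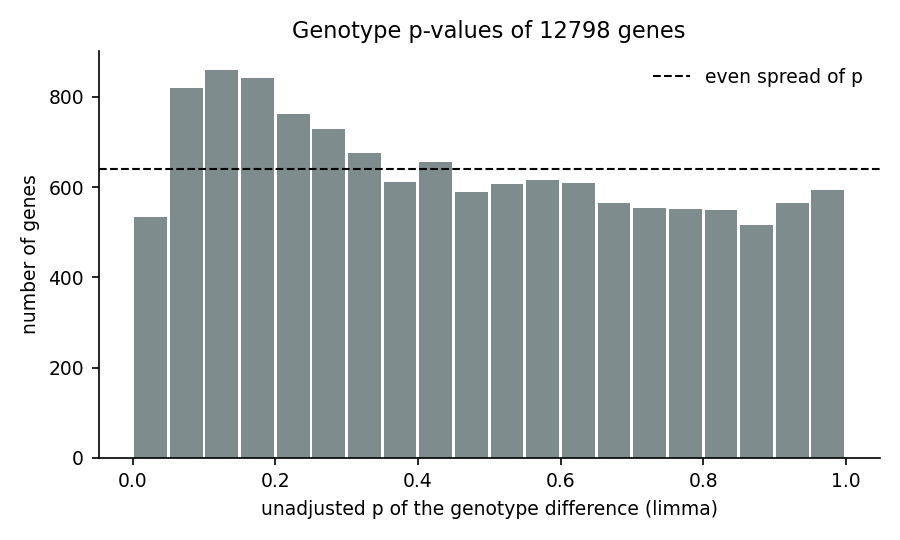
Number of genes (y axis) by unadjusted limma p of the genotype difference (x axis, bins of 0.05), with a dashed line at the 639.9 genes per bin of an even spread. The lowest bin holds 534 genes, below the line, and the next 3 bins hold 820, 859 and 841.

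The genes nearest to a call were of low or moderate level, and none passed. On the higher side the smallest unadjusted p belonged to Cib3 (0.00114), a member of the calcium and integrin binding family, at 2.46 ± 0.857 scaled TPM in mdx:Utrn+/- and 1.02 ± 0.413 in mdx (log2 difference 0.77). It rested on 9 to 21 reads in mdx:Utrn+/- and 3 to 10 reads in mdx. Loh12cr1, Spink4, S100a9, Prelid2, Dhx37, Adat2, Fam173b, Dnajb2 and Pcbp4 followed, with log2 differences of 0.41 to 1.26. Spink4 is a protease inhibitor of the gut known from secretory cells, and had 3 to 17 reads in mdx:Utrn+/- and 0 to 14 in mdx. Among mdx libraries it reached 1 TPM only in saline replicates 1 and 3, so it passed the filter only through mdx:Utrn+/- libraries. Dnajb2, a co-chaperone of Hsp70, averaged 77.9 ± 12.0 scaled TPM in mdx:Utrn+/- and 58.2 ± 6.30 in mdx. These 10 genes had log2 differences of 0.27 to 1.15 without the 5 libraries.

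On the lower side the smallest p belonged to Alg14 (0.00304), a subunit of the enzyme that adds the second sugar in N-glycan assembly. It averaged 6.90 ± 2.24 scaled TPM in mdx:Utrn+/- and 10.7 ± 2.21 in mdx (log2 difference -0.60). Tfpi2, Drd2, Gkn3, Utrn, Hmgb2, Myl7, Arl14ep, Hey2 and Pus7 followed, with log2 differences of -0.34 to -2.16. Hmgb2, a chromatin protein abundant in dividing cells, averaged 8.40 ± 1.80 in mdx:Utrn+/- and 11.9 ± 1.91 in mdx. Hey2, a Notch-regulated repressor of atrial genes in the ventricle, averaged 2.81 ± 0.602 in mdx:Utrn+/- and 4.69 ± 1.74 in mdx. Hey2 had a log2 difference of -0.70 without the 5 libraries. Drd2 and Gkn3 had at most 45 reads in any library and were not fitted without the 5 libraries, where the other 8 genes had log2 differences of -0.31 to -1.96.

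In 12 genes (0.0938% of those tested) the 6 mdx:Utrn+/- libraries did not overlap the 6 mdx libraries. Random labels would also separate some genes, and the count was not tested against that. The 6 on the higher side were Adat2, Dcxr, Bud31, Unc45b, Polg and Dhx37. The 6 on the lower side were Pus7, Arl14ep, Poc1b, Katnbl1 and 2 predicted genes. Those not among the 10 smallest p on either side are named here after their values were seen. The gaps were narrow. Unc45b, the myosin chaperone of striated muscle, had 126, 138 and 132 scaled TPM in mdx:Utrn+/- with saline and 130, 130 and 137 with PB1046, against 120, 106 and 113 in mdx with saline and 119, 120 and 111 with PB1046. Its groups were tight, and the log2 difference was 0.20 (95% interval -0.02 to 0.42). Polg, the catalytic subunit of the mitochondrial DNA polymerase, had 29.0 to 32.1 in mdx:Utrn+/- and 24.8 to 28.5 in mdx (log2 difference 0.18). Arl14ep, which links a small GTPase to the actin cytoskeleton, had 3.46 to 4.46 in mdx:Utrn+/- and 4.91 to 5.85 in mdx (log2 difference -0.34). Pus7, a pseudouridine synthase, had 2.27 to 4.29 in mdx:Utrn+/- and 4.51 to 5.92 in mdx (log2 difference -0.44). The log2 differences were 0.15 for Unc45b, 0.22 for Polg, -0.35 for Arl14ep and -0.41 for Pus7 without the 5 libraries.

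The altered allele lies on chromosome 10, so genes around it were read separately. Within 5 Mb of Utrn, between lower coordinates, 29 other genes were tested, 0 were called, and 2 (6.90%) had an unadjusted p under 0.05, beside 4.17% of all genes. Within 10 Mb these were 2 of 66 and within 20 Mb 3 of 97. The median log2 difference was 0.02, -0.01 and 0.00 in the 3 windows. Adat2, a subunit of the tRNA adenosine deaminase, lies 1.17 Mb above Utrn. It had 2.32, 2.79 and 3.91 scaled TPM in mdx:Utrn+/- with saline and 2.20, 2.17 and 3.05 with PB1046, against 2.00, 1.47 and 2.05 in mdx with saline and 1.86, 0.895 and 1.51 with PB1046. All mdx:Utrn+/- libraries were above all mdx libraries, on 14 to 78 reads in mdx:Utrn+/- and 10 to 44 in mdx. The log2 difference was 0.51 (SE 0.15, unadjusted p = 0.00540). It was 0.36 without the 5 libraries.

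**Figure D3:**
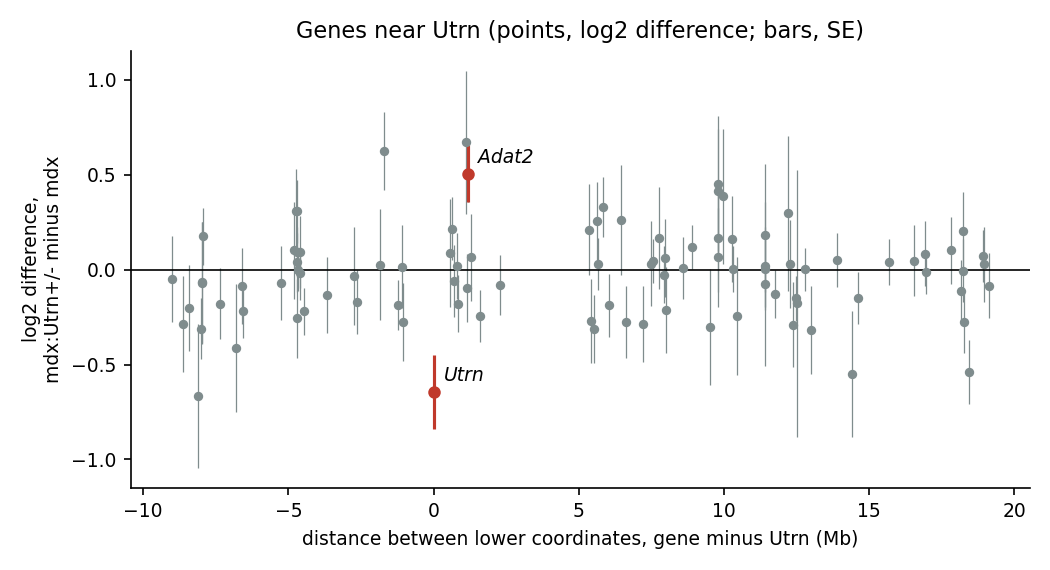
Log2 difference (y axis, mdx:Utrn+/- minus mdx, bars SE) of each tested gene by its distance in Mb from Utrn (x axis). Utrn is at -0.64 and Adat2 at 0.51, both in red, and the median of the 66 other genes within 10 Mb is -0.01.

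The unfolded protein response is the program by which chaperones of the endoplasmic reticulum are induced when proteins misfold there. Of 18 measured genes of this list 0 passed, 16 were higher in mdx:Utrn+/- and 2 lower, with a median log2 difference of 0.26 (beside 0.01 and 51.0% higher for all genes). At an unadjusted p under 0.05 there were 5 members, all higher, beside 2.98% of all genes. The 5 libraries of high endothelial score held the lowest scores of this list too. The median was 0.42 under saline and 0.07 under PB1046, a gap that was not tested, and 0.16 with the endothelial score as a term. It was 0.23 without the 5 libraries, with 15 of 18 higher, and whether the list differs in this from others was not tested. Without scaling factors it was 0.01, which is 0.22 above the median of all genes in that fit.

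Hspa5 encodes BiP, the main Hsp70 chaperone of the endoplasmic reticulum. Its level was 569, 636 and 445 scaled TPM in mdx:Utrn+/- with saline and 626, 378 and 592 with PB1046, against 423, 238 and 258 in mdx with saline and 544, 288 and 310 with PB1046. The groups overlapped through mdx:Utrn+/- PB1046 replicate 2 and mdx PB1046 replicate 1. The log2 difference was 0.69 (SE 0.22, 95% interval 0.22 to 1.16, unadjusted p = 0.00767, adjusted p = 0.834 in limma). It was 0.27 (unadjusted p = 0.204) without the 5 libraries, 0.48 with the endothelial score as a term and 0.44 without scaling factors. Manf, a secreted stress protein of the same compartment, averaged 41.8 ± 10.6 in mdx:Utrn+/- and 28.4 ± 4.89 in mdx (log2 difference 0.53, SE 0.17, unadjusted p = 0.00787). It was 0.37 without the 5 libraries. Hsp90b1, the Hsp90 of the endoplasmic reticulum, averaged 326 ± 43.1 in mdx:Utrn+/- and 243 ± 36.2 in mdx (log2 difference 0.42, SE 0.14, unadjusted p = 0.00939). That difference was 0.30 without the 5 libraries. The remaining 2 of the 5, named after their values were seen, were Calr, the lectin chaperone calreticulin (0.41, and 0.24 without the 5 libraries), and Sdf2l1, a BiP cofactor (0.50, and 0.59). Ddit3, Atf4 and Trib3, factors of the PERK and ATF4 branch, had log2 differences of 0.25, 0.10 and -0.10, and of 0.43, 0.00 and 0.22 without the 5 libraries.

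Several genes of this list are known targets of ATF6, which acts with NF-Y at the endoplasmic reticulum stress response element, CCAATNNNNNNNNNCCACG. The list also holds factors of the PERK and ATF4 branch, such as Ddit3, Atf4 and Trib3. The motif was searched on both strands of 32851 RefSeq promoters of 300 bases (GRCm38.p6, 250 bases before to 50 after each start) and was found in 0.119% of them. Of the 17 list members matched to a promoter, 7 held it. The windows are shown because they are what the 7 genes share in sequence, and the capitals mark the motif in either orientation, with 20 bases on each side and the gene's own strand read 5′ to 3′. Hsp90b1 holds 2, printed apart, and the motifs begin at positions -212 to -65 from the start.
Hspa5 (chr2:34772005-34772063, plus strand): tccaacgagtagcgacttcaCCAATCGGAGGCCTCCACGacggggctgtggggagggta
Hsp90b1 first (chr10:86705618-86705676, minus strand): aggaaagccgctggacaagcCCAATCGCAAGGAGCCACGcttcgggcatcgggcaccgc
Hsp90b1 second (chr10:86705513-86705571, minus strand): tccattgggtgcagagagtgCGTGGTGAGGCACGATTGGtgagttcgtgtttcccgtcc
Calr (chr8:84847055-84847113, minus strand): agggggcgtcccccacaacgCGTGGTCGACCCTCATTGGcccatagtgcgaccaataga
Canx (chr11:50325780-50325838, minus strand): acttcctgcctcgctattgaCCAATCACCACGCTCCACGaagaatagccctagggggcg
Pdia6 (chr12:17266471-17266529, plus strand): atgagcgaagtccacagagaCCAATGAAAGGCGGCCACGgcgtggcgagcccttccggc
Creld2 (chr15:88819500-88819558, plus strand): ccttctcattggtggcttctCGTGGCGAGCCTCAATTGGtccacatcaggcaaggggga
Dnajc3 (chr14:118937807-118937865, plus strand): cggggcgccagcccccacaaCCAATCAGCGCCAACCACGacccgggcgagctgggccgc

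The 7 holders had log2 differences of 0.69 for Hspa5, 0.42 for Hsp90b1, 0.41 for Calr, 0.39 for Canx, 0.38 for Pdia6, 0.19 for Creld2 and 0.05 for Dnajc3. All 7 were higher, with a median of 0.39, and of the 10 list members without the motif in the window 8 were higher, with a median of 0.18. Beyond the list, 7 further tested genes held the motif, and 2 of these were higher, with a median of -0.07. Leaving out the 5 libraries of high endothelial score, 6 of the 7 holders were higher (median 0.24), as were 8 of the 10 other members (0.17) and 6 of the 7 further genes (0.06). These counts are a description, and no test was made of them.

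Genes of the heat shock list showed a similar median, which did not keep its sign without the 5 libraries. Of 18 heat shock genes 0 passed and 16 were higher in mdx:Utrn+/-, with a median log2 difference of 0.29. It was 0.18 with the endothelial score as a term, with 15 of 18 higher, and -0.02 without the 5 libraries, with 9 of 18 higher. Hsp90aa1, the inducible cytosolic Hsp90, averaged 201 ± 59.4 scaled TPM in mdx:Utrn+/- and 132 ± 29.0 in mdx (log2 difference 0.59, SE 0.20, unadjusted p = 0.0116), and 0.31 without the 5 libraries. Bag3, a co-chaperone at the Z-disc, averaged 308 ± 76.2 in mdx:Utrn+/- and 209 ± 76.5 in mdx (0.59, SE 0.24), and its log2 difference was 0.20 without the 5. Hsph1, an Hsp110 exchange factor, averaged 48.7 ± 33.8 in mdx:Utrn+/- and 24.7 ± 8.17 in mdx, with 116 in mdx:Utrn+/- saline replicate 3 and at most 45.7 in the other mdx:Utrn+/- libraries (log2 difference 0.56 without the 5). Hspa1a and Hspa1b, the inducible Hsp70 genes, were the 2 members with log2 differences below 0, at -0.23 (SE 0.80) and -0.45 (SE 0.88). Without the 5 libraries their log2 differences were -0.67 and -0.60. Their means over all 12 libraries went the other way. Hspa1a averaged 47.3 ± 61.4 in mdx:Utrn+/- and 27.0 ± 10.6 in mdx, with 166 in mdx:Utrn+/- saline replicate 3. For Hspa1b the mean was 31.2 ± 46.9 in mdx:Utrn+/- and 16.5 ± 7.24 in mdx, with 123 in that library.

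Energy metabolism genes lay higher in mdx:Utrn+/- in most cases, none past the threshold. All 34 measured members of oxidative phosphorylation were higher, with a median log2 difference of 0.28, and 6 of the 34 had an unadjusted p under 0.05, beside 2.98% of all genes on the higher side. Of 33 genes of fatty acid oxidation 31 were higher (median 0.30), of 24 of glycolysis and glucose uptake 22 (0.26), and of 20 of the tricarboxylic acid cycle 20 (0.21). Without the 5 libraries the medians were 0.04, -0.09, 0.02 and -0.21, with 19 of 34, 12 of 33, 13 of 24 and 4 of 20 members higher. With the endothelial score as a term they were 0.17, 0.10, 0.13 and 0.03, with 30, 27, 21 and 13 members higher. Without scaling factors they were 0.03, 0.05, 0.01 and -0.04, which is 0.24, 0.25, 0.22 and 0.16 above the median of all genes in that fit.

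Uqcrq, a subunit of respiratory complex III, had a log2 difference of 0.46 (SE 0.17, unadjusted p = 0.0193), and 0.45 without the 5 libraries. Cpt1b, the muscle carnitine palmitoyltransferase that admits fatty acids to mitochondria, averaged 472 ± 61.9 scaled TPM in mdx:Utrn+/- and 360 ± 90.6 in mdx (log2 difference 0.42, SE 0.18, unadjusted p = 0.0341). It was 0.11 without the 5 libraries. Slc27a1, a fatty acid transporter, averaged 104 in mdx:Utrn+/- and 74.0 in mdx, with ranges of 74.9 to 136 in mdx:Utrn+/- and 51.2 to 108 in mdx (0.52, and 0.08 without the 5). Idh3g, a subunit of isocitrate dehydrogenase, averaged 829 ± 139 in mdx:Utrn+/- and 621 ± 128 in mdx (0.42, and 0.20 without the 5). Pfkfb3, which makes the activator of phosphofructokinase and is also a gene of endothelial cells, went the other way. It averaged 2.35 ± 0.678 in mdx:Utrn+/- and 4.86 ± 2.32 in mdx (log2 difference -0.72, SE 0.26), and -0.11 without the 5 libraries.

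**Figure D4:**
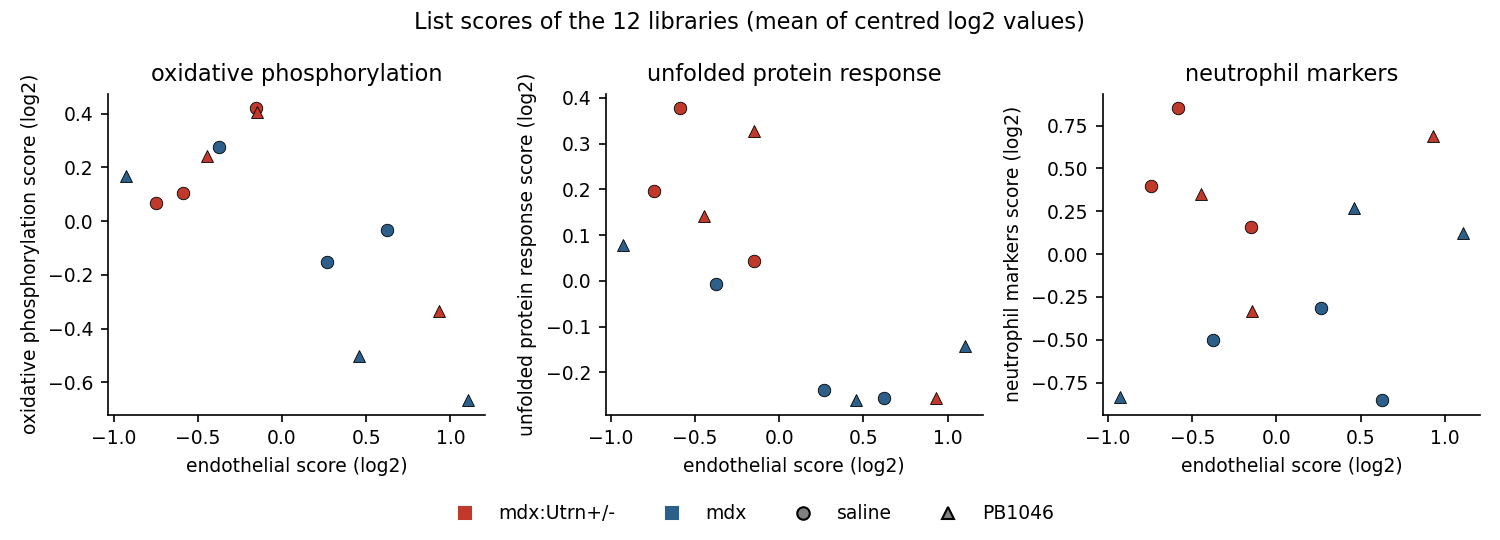
Score of a list (y axis, mean of centred log2 values) against the endothelial score (x axis) in each of the 12 libraries, mdx:Utrn+/- in red and mdx in blue, circles for saline and triangles for PB1046. The 5 libraries with endothelial scores of 0.27 to 1.11 hold the lowest oxidative phosphorylation and unfolded protein response scores, and the neutrophil score shows no such split.

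Contractile genes followed the same pattern. Of 20 sarcomere genes 18 were higher and 0 passed (median log2 difference 0.28, and -0.01 without the 5 libraries). Of 22 calcium handling genes 19 were higher (0.21, and -0.08), of 18 genes of the intercalated disc 14 (0.15, and -0.10) and of 23 ion channel genes 15 (0.11, and -0.13). All 10 cardiomyocyte markers were higher as well (0.26, and 0.01). With the endothelial score as a term these medians were 0.15, 0.10, 0.03, -0.03 and 0.14, in the same order. Myl3, the ventricular essential myosin light chain, had a log2 difference of 0.58 (SE 0.21, unadjusted p = 0.0170), and 0.39 without the 5. Jph2, which holds the junction of sarcoplasmic reticulum and T-tubule, averaged 263 ± 81.1 scaled TPM in mdx:Utrn+/- and 186 ± 44.7 in mdx (0.47, and 0.22 without the 5). Kcnk3, a background potassium channel, averaged 222 ± 91.4 in mdx:Utrn+/- and 143 ± 40.3 in mdx (0.58, and 0.37 without the 5). Flnc, the muscle filamin of the Z-disc and costamere, averaged 83.0 ± 14.1 in mdx:Utrn+/- and 56.1 ± 21.9 in mdx (0.62, and 0.06 without the 5). Gjc1, the connexin of the conduction system, was lower at 10.5 ± 1.03 in mdx:Utrn+/- and 14.3 ± 2.85 in mdx (log2 difference -0.39, SE 0.15, and -0.25 without the 5).

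Of the genes named here Myl7 had the widest log2 difference. Myl7, the regulatory myosin light chain of atrial muscle, had 10.05, 62.8 and 0.864 scaled TPM in mdx:Utrn+/- with saline and 6.91, 15.7 and 4.40 with PB1046, against 54.2, 29.7 and 68.1 in mdx with saline and 17.9, 44.7 and 73.2 with PB1046. All mdx:Utrn+/- libraries but saline replicate 2 were below all mdx libraries. The log2 difference was -2.16 (SE 0.67, 95% interval -3.62 to -0.70, unadjusted p = 0.00695, adjusted p = 0.834 in limma), and -1.96 without the 5 libraries. Myl4, the essential light chain of the atrium, averaged 20.04 ± 19.8 in mdx:Utrn+/- and 34.1 ± 13.9 in mdx (-1.03, SE 0.45, and -0.93 without the 5). Mybphl, a myosin-binding protein of the atrium, averaged 1.75 ± 1.26 in mdx:Utrn+/- and 3.00 ± 0.826 in mdx (-0.63, SE 0.24, and -0.43 without the 5). Sln, sarcolipin, the inhibitor of the calcium pump in the atrium, had a log2 difference of -1.48 (unadjusted p = 0.0448), and -1.38 without the 5. Nppa, the natriuretic peptide made in atria and in stressed ventricles, had 0.99 (unadjusted p = 0.120), and 0.04 without the 5. Of 9 measured atrial markers 6 were lower and 0 passed, and the median was -0.36, and -0.43 without the 5. The markers summed to 895 to 5392 TPM in mdx:Utrn+/- and 671 to 5000 TPM in mdx, sums that Nppa dominates. The share of atrial cells was not measured, and its part in these values was not tested.

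The series names NF-kB and cAMP-PKA-CREB transcripts as its subject. Of 27 measured NF-kB targets 0 passed and 22 were lower in mdx:Utrn+/-, with a median log2 difference of -0.16. It was 0.21 under saline and -0.52 under PB1046, a gap that was not tested, and the median was -0.03 without the 5 libraries. Nfkbiz, an inducible regulator of NF-kB, averaged 3.74 ± 1.15 scaled TPM in mdx:Utrn+/- and 5.80 ± 1.55 in mdx (log2 difference -0.52, SE 0.20, unadjusted p = 0.0218), and -0.37 without the 5. Cxcl10, a chemokine induced by interferon and NF-kB, averaged 1.90 ± 0.989 in mdx:Utrn+/- and 2.92 ± 1.18 in mdx (-0.45, SE 0.25, and -0.23 without the 5). Of 30 NF-kB pathway components 21 were lower (median -0.09), yet 17 of 30 were higher without the 5 libraries (0.08). Of 37 cAMP-PKA-CREB components 20 were higher and 17 lower, with a median of 0.01, and -0.01 without the 5, and none at an unadjusted p under 0.05. Creb1, the transcription factor itself, averaged 4.79 ± 1.17 in mdx:Utrn+/- and 5.93 ± 0.999 in mdx (-0.27, SE 0.15, and -0.09 without the 5). Of 28 immediate early and CREB target genes 20 were lower (median -0.26, and -0.16 without the 5).

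Endothelial, fibroblast and matrix genes lay lower over all 12 libraries, none past the threshold, and not without the 5. With the endothelial score as a term, fibroblast and matrix genes stayed lower. All 15 endothelial markers were lower in mdx:Utrn+/- and 0 passed (median log2 difference -0.38, at -0.60 under saline and -0.05 under PB1046). Without the 5 libraries, which were set aside by this very score, it was 0.18. Pecam1, an adhesion molecule of endothelium, averaged 47.5 ± 24.6 scaled TPM in mdx:Utrn+/- and 65.3 ± 25.5 in mdx (-0.47, SE 0.35, and 0.07 without the 5). All 14 fibroblast markers were lower too (median -0.31, at -0.02 under saline and -0.69 under PB1046, and 0.05 without the 5). With the endothelial score as a term these markers had a median of -0.30, with 0 of 14 higher. Their sums were 280 to 685 TPM in mdx:Utrn+/- and 379 to 1920 TPM in mdx. Dcn, a matrix proteoglycan of fibroblasts, averaged 104 ± 28.3 in mdx:Utrn+/- and 164 ± 104 in mdx, and the mdx mean rests on 363 in mdx PB1046 replicate 3. Its log2 difference was -0.17 without the 5. Of 33 matrix genes 30 were lower (median -0.17), with 0.37 under saline and -0.62 under PB1046. Without the 5 libraries 18 of 33 were higher (0.02), and with the endothelial score as a term 3 of 33 were (-0.26). Of 24 interferon response genes 22 were lower (median -0.26, -0.05 with the endothelial score as a term, and 0.19 without the 5 libraries). The macrophage markers had a median of -0.04 over 18 genes, at 0.40 under saline and -0.45 under PB1046, and 17 of 18 were higher without the 5 libraries (0.18).

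Markers of neutrophils, granulocytes of the blood, lay higher in mdx:Utrn+/-, and 0 passed. Only 4 of 9 were measured, and all 4 were higher (median log2 difference 0.74, at 0.98 under saline and 0.49 under PB1046, and 0.83 without the 5 libraries). S100a9, a subunit of calprotectin, had 6.43, 6.62 and 5.003 scaled TPM in mdx:Utrn+/- with saline and 5.41, 9.20 and 2.19 with PB1046, against 2.15, 1.09 and 0.315 in mdx with saline and 1.03, 4.96 and 2.55 with PB1046. Under saline the groups did not overlap. In log2 terms the difference was 1.26 (SE 0.35, 95% interval 0.51 to 2.01, unadjusted p = 0.00312, adjusted p = 0.834 in limma), on 12 to 49 reads in mdx:Utrn+/- and 2 to 20 in mdx. Its partner S100a8 averaged 4.47 ± 2.25 in mdx:Utrn+/- and 1.67 ± 1.62 in mdx (1.15, SE 0.40, unadjusted p = 0.0126). Without the 5 libraries the log2 differences were 1.15 for S100a9 and 1.59 for S100a8. The remaining markers, Csf3r and Cxcr2, named after their values were seen, differed less, at 0.08 and 0.33 (0.39 and 0.51 without the 5). They averaged 1.45 and 1.42 scaled TPM in mdx:Utrn+/- and 1.38 and 0.888 in mdx. Under PB1046 Csf3r was at -0.22. The list median lies between these 2 pairs of genes. The 4 markers together summed to 5.22 to 22.3 TPM in mdx:Utrn+/- and 2.47 to 14.5 TPM in mdx, so the signal is small. Markers of other blood cells lay on the same side. Of 9 measured erythroid and platelet markers 8 were higher in mdx:Utrn+/- (median 0.26, at 0.60 under saline and -0.08 under PB1046). The median was 0.63 with the endothelial score as a term. It was 0.37 without the 5 libraries, where 6 markers were fitted and all 6 were higher. The sums of these markers were 46.8 to 1100 TPM in mdx:Utrn+/- and 29.7 to 1241 TPM in mdx. The highest erythroid and platelet score, 2.64, was that of mdx:Utrn+/- PB1046 replicate 2, which also had the most S100a9, and the next, 2.21, was that of mdx PB1046 replicate 3, with 2.55 scaled TPM of S100a9. All 3 measured lymphocyte markers were higher (median 0.10, at 0.50 under saline and -0.12 under PB1046). Only 1 of them was fitted without the 5 libraries (0.37). The part of blood in the neutrophil values was not tested.

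Smaller lists gave single genes near a call. Srxn1, which reduces oxidised peroxiredoxins, averaged 25.5 ± 4.21 scaled TPM in mdx:Utrn+/- and 18.8 ± 2.86 in mdx (log2 difference 0.42, SE 0.14, unadjusted p = 0.0113), and 0.27 without the 5. It belongs to 22 oxidative stress genes, of which 18 were higher (median 0.22, and 0.04 without the 5 libraries). Tubb4b, a beta-tubulin, averaged 406 ± 79.7 in mdx:Utrn+/- and 290 ± 46.1 in mdx (0.48, SE 0.16, and 0.39 without the 5), within 20 microtubule genes of which 12 were higher (median 0.11, and 0.12 without the 5 libraries). Murc, a caveolar coat protein of muscle, averaged 160 ± 31.5 in mdx:Utrn+/- and 117 ± 37.4 in mdx (0.49, and 0.05 without the 5). It belongs to 19 membrane repair genes, of which 14 were lower (median -0.09), yet 14 of 19 were higher without the 5 libraries (0.11). Hlf, a clock output factor, averaged 5.34 ± 2.16 in mdx:Utrn+/- and 8.65 ± 3.41 in mdx (-0.60, SE 0.24, and -0.35 without the 5), within 19 clock genes of which 14 were lower (median -0.16, and -0.16 without the 5). Errfi1, a feedback inhibitor of EGF receptors, averaged 11.7 ± 3.16 in mdx:Utrn+/- and 19.2 ± 8.31 in mdx (-0.61, and -0.30 without the 5). Mt1, a metallothionein, averaged 1130 ± 619 in mdx:Utrn+/- and 565 ± 174 in mdx (0.84, SE 0.39, unadjusted p = 0.0515), with 1.49 under saline, 0.19 under PB1046 and 0.81 without the 5. Of 20 cell cycle genes 18 were lower (median -0.20, and -0.14 without the 5), none at an unadjusted p under 0.05.

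**Figure D5:**
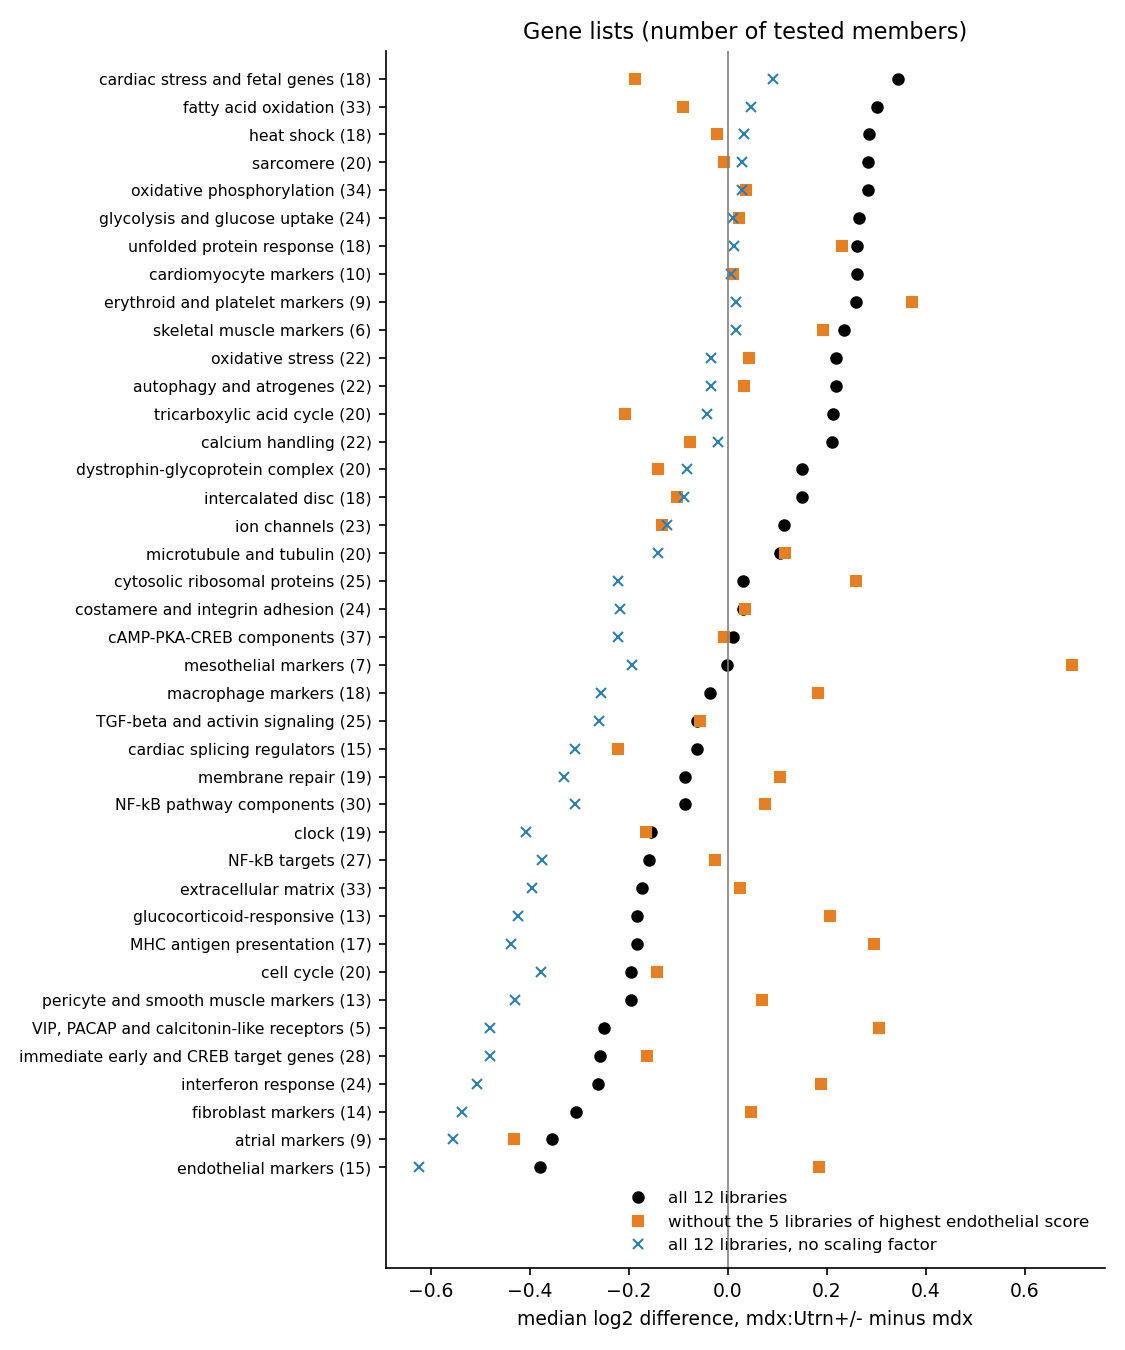
Median log2 difference (x axis, mdx:Utrn+/- minus mdx) of each gene list with 5 or more tested members, in all 12 libraries (circles), without the 5 libraries of highest endothelial score (squares) and without scaling factors (crosses). Most lists of cardiomyocyte genes lie near or below zero without the 5 libraries. Lists that keep their side without the 5 include the unfolded protein response (0.26 with and 0.23 without them) and microtubule genes (0.11 and 0.12). On the lower side, clock genes (-0.16 and -0.16) and atrial markers (-0.36 and -0.43) do so too.

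Whether the difference stood for both treatments was tested by the interaction of genotype and treatment. In limma 0 of 12798 genes passed, the smallest adjusted p was 0.999, and 288 genes (2.25%) had an unadjusted p under 0.05. For Utrn the difference was -0.66 under saline and -0.63 under PB1046, an interaction of 0.04 (unadjusted p = 0.930). For Hspa5 it was 0.87 under saline and 0.51 under PB1046 (interaction -0.37, unadjusted p = 0.426), and for Myl7 it was -2.16 under each treatment. Of the 534 genes at an unadjusted p under 0.05 in the pooled comparison, 533 had the same sign under both treatments, which the pooling itself favours. In the authors' deposited table, whose values run mdx minus mdx:Utrn+/- and are turned round here, Utrn had a log2 fold change of -0.74 under saline and -0.76 under PB1046. Per the authors' deposited table, no gene (0) had a false discovery rate under 0.05 between genotypes under either treatment, with 862 of 18530 (4.65%) under saline and 501 (2.7%) under PB1046 at a p-value under 0.05.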

How the data were processed

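The authors deposited a single table of 18530 genes on mm10, in copies with equal cells. Its values per library are TPM, summing to 1000000 in each, and beside them stand the authors' pairwise results, which per the file headers hold false discovery rates, p-values, likelihood ratio scores, log2 CPM and log2 fold changes. The submitters' processing notes name edgeR. No aligner, read counter or gene length is stated in the sources used here.

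TPM were divided by trimmed-mean factors (30% of log ratios and 5% of levels trimmed), put on log2(value + 1) and fitted with limma 3.58.1 (R 4.3.3; trend and robust moderation, genotype with treatment as a block, Benjamini-Hochberg threshold 0.05). Whole reads came back for 100% of genes (tolerance 0.1 reads) and gave depth, read numbers and limma-voom. Read depth limits precision most for genes on few reads. Scripts were tested on simulated data. A difference of library factors between genotypes moves every log2 difference together, as the fit without factors shows. Gene lists are described by counts and medians, with no set test.

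The members, the gene lists and the rule for named genes were chosen with earlier results of these data known. The rule takes Utrn and Dmd, the 10 smallest p per direction where fewer pass, 3 members per list and genes within 5 Mb of Utrn at an unadjusted p under 0.05. It allows 146 genes, of which those printed were picked after their values were seen. A gene that the rule allows is not reported here. Promoter sequences are from RefSeq (GRCm38.p6). Of the genes tested, 9392 matched a promoter by symbol.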

Additional observations from a re-analysis of the deposited data

Results flagged for a closer look

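Among the 57 genes checked in each genotype (114 groups of 6 libraries, where chance alone would mark about 5% of groups), 2 libraries stood apart from their group. Erg, an endothelial transcription factor, was 32.6 scaled TPM in mdx:Utrn+/- PB1046 replicate 2, against 7.93 to 12.3 in the other mdx:Utrn+/- libraries. That library had the highest endothelial score of its genotype, 0.93. Ifit2, an interferon-induced gene, was 7.57 scaled TPM in mdx PB1046 replicate 1, against 11.5 to 13.0 in the other mdx libraries. That library had the lowest endothelial score of the series, -0.93. The part of endothelial content in either value was not tested.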

How the results depend on the processing

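No alternative gave a gene with an adjusted p under 0.05, and Utrn was lower in all of them (log2 difference -0.79 to -0.55 with single libraries left out, -0.37 without the 5 libraries of high endothelial score, -0.87 without scaling). The exact permutation p of Utrn was 0.005 to 0.045 with single libraries left out. The number of genes at an unadjusted p under 0.05, 534 in all, was 177 to 1766 with single libraries left out, 1063 without scaling, 310 with the endothelial score as a term, 212 under PB1046 alone, 987 with the replicate block and, in alternatives chosen after seeing the data, 1081 with the atrial score as a term and 164 without the 5 libraries. Correlations between libraries of the same replicate number were -0.44 to 0.49 (mean 0.07), beside -0.67 to 0.64 (mean -0.04) for different numbers. Because these ranges overlap, they cannot settle whether replicate numbers pair the libraries. With the replicate block Utrn was at -0.64 and 0 genes were called. The count of genes without overlap was 14 to 86 with single libraries left out and 23 without scaling. Smaller groups separate more readily, so a rise is built into the counts with a library left out. The median of genes within 10 Mb of Utrn was -0.22 without scaling, beside -0.21 for all genes. Signs turned for Pecam1 (log2 difference 0.069) and Erg (0.15) without the 5 libraries. The sign of Dmd turned without mdx:Utrn+/- saline replicate 1 (0.089). Leaving out other single libraries gave Dmd as low as -0.20, and leaving out the 5 gave -0.30. The cause of these changes was not tested. Of 1080 list medians under alternatives, 29 moved beyond the spread between libraries. That count does not mark turns of sign, such as that of heat shock genes (0.29, and -0.02 without the 5 libraries). The permutation test was not run without the 5 libraries, where only 12 relabelings are left, too few for it to give a small p. Sequencing depth limits what can be said of genes with few reads, such as Cib3, Spink4 and Gkn3.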

Other observations

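Further gene groups gave values with 0 members past the threshold. Of 22 genes of autophagy and muscle atrophy 17 were higher in mdx:Utrn+/- (median log2 difference 0.22, and 0.03 without the 5 libraries of high endothelial score). Of 18 cardiac stress and fetal genes 14 were higher (0.34, and -0.19 without the 5), and the 4 lower ones were Myl4, Myl7, Sln and Mybphl. The 25 cytosolic ribosomal protein genes had a median of 0.03, with 15 higher, and 0.26 with 24 higher without the 5 libraries. Of 17 genes of MHC antigen presentation 13 were lower (median -0.18), yet all 17 were higher without the 5 libraries (0.30). The 24 costamere and integrin genes were split into 12 higher and 12 lower (0.03, and 0.03 without the 5). Of 25 genes of TGF-beta and activin signaling 17 were lower (-0.06, and -0.06 without the 5), and of 15 cardiac splicing regulators 11 (-0.06, and -0.22). The 5 measured genes of the VIP, PACAP and calcitonin-like receptor list had a median of -0.25 under saline and under PB1046 alike, and 0.31 without the 5 libraries. Glucocorticoid-responsive genes, 13 in number, had a median of 0.44 under saline and -0.51 under PB1046, a gap that was not tested, and 0.21 without the 5. Pericyte and smooth muscle markers had medians of 0.13 under saline and -0.43 under PB1046 over 13 genes, and 0.07 without the 5. Myh11, the smooth muscle myosin, averaged 4.19 ± 1.69 scaled TPM in mdx:Utrn+/- and 7.40 ± 3.30 in mdx (log2 difference -0.67, SE 0.30, and -0.17 without the 5).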
